A study of Mus musculus with 2 samples.

Results

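Transcripts of 8 genes of serine synthesis and the ATF4 stress response, of 27998 genes counted, were described in single retinal cells: Phgdh, Psat1, Psph, Shmt2, Mthfd2, Asns, Atf4 and Ddit3. The list was selected on levels measured in these same cells, so the levels are given as a description. The LD group was 1 pool of retinas from 5 to 8 male CB6F1 Cx3cr1-YFP mice aged 8 months. These mice were dark-adapted overnight, had their pupils dilated, spent 4 h under LED light of 10 klux and recovered for 5 days. The ctrl group was 1 pool of the same make-up whose mice had no light damage. In both groups YFP-positive cells were sorted, that is, cells in which the fractalkine receptor gene Cx3cr1 is active, and each pool gave 1 library of the 3' end kind. Because each group is 1 library, no test was run, and pool, library and treatment cannot be told apart.

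Serine is made from a glycolytic intermediate in a chain of enzymes. Phgdh takes the first and committed step, Psat1 adds the amino group, and Psph removes the phosphate. Shmt2 and Mthfd2 work in mitochondria, where Shmt2 moves a carbon from serine to folate and Mthfd2 oxidises the resulting folate on the way to formate for purine synthesis. Asns makes asparagine. Atf4 encodes the transcription factor whose translation rises when eIF2 is phosphorylated under amino acid shortage, unfolded protein or other stress, and its known targets include the other genes of the list. Ddit3 encodes CHOP, a transcription factor linked to prolonged stress and cell death.

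The rule set 3 kinds of cells in each library by sums of unique molecular identifiers (UMIs) per 10000 of a cell. Microglia had at least 20 of P2ry12, Tmem119, Siglech, Gpr34 and P2ry13 together, which gave 4387 LD cells and 3379 ctrl cells. Cells with at least 5 of Cst7 and Lpl, genes of the lesion-associated state of microglia, numbered 324 in LD and 27 in ctrl. Of the LD ones, 197 were also microglia, 64 also other macrophages and 63 neither. Other macrophages had under 10 of the first sum and under 10 of the perivascular genes Mrc1, F13a1, Cd163, Lyve1 and Cbr2, which gave 1171 LD cells and 244 ctrl cells. Levels are UMIs per 1000000 UMIs of a class (CPM), and ratios carry exact 95% intervals. The intervals cover counting error only and leave out differences between cells, mice and pools. A gene was counted as higher or lower when it had 20 CPM in either class and differed over 1.5-fold.

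The LD matrix held 6821 barcodes with a median of 7351 UMIs, and the ctrl matrix held 4003 with a median of 4846. After filters 6427 LD cells and 3820 ctrl cells remained, and 42 of their barcodes occurred in both libraries. All 8 markers of macrophages in general were detected in each class, at a summed 32327 CPM in LD microglia and 30870 CPM in ctrl microglia. The sum was 20758 CPM in LD other macrophages and 11006 CPM in ctrl other macrophages. The ctrl class of other macrophages was mixed. It had 13528 CPM of 5 rod photoreceptor genes, against 285 CPM in the LD class, and 74 of its 244 cells passed 20 per 10000 of rod or Müller glia genes. These 74 cells had 3218 CPM of the macrophage markers, and the other 170 had 13287 CPM. Ratios and counts between LD and ctrl other macrophages are also given without such cells. In LD cells near the cutoffs, those with 20 to 25 of the microglia sum had 35.1 CPM of Psat1 and those with 15 to 20 had 28.4 CPM. Those with 5 to 6 of Cst7 and Lpl had 58.9 CPM of Psat1 and those with 4 to 5 had 31.8 CPM. Those with 5 to 10 of the first sum had 12.998 CPM of Phgdh and those with 10 to 15 had 48.9 CPM.

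In mm10 the genes lie on 6 chromosomes. Phgdh is at chr3:98313170-98339990, Psat1 at chr19:15904678-15947337, Psph at chr5:129765558-129787449, Shmt2 at chr10:127517123-127522444, Mthfd2 at chr6:83305691-83325908 and Asns at chr6:7675169-7693254, all on the minus strand. Atf4 is at chr15:80255184-80257541 and Ddit3 at chr10:127290774-127296288, on the plus strand. The annotation gives each as a protein-coding gene. Of the 50-base words in the last 500 bases of Phgdh transcripts, 42.2% also occurred in other annotated genes, among them Phgdh-ps1, so Phgdh counts are uncertain. For Shmt2 the share was 1.90% and for Psat1 0.733%, and for the other 5 it was 0. Ddit3 overlaps a second annotated gene of the same name on the same strand, and Mars on the opposite strand. Psat1, Psph and Shmt2 also have an annotated gene on the opposite strand, and Mthfd2 has Gm43890 on its own strand.

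RefSeq promoter windows of GRCm38.p6, from 250 bases before to 50 bases after a start site, were searched on both strands for the composite element of C/EBP and ATF factors. Of 9 windows of the 8 genes, 0 held TGATGCAA and 1, that of Asns, held TGATGNAA, a pattern that includes the first and was present in 3.97% of all 32851 windows (TGATGCAA in 0.895%). The match of Asns reads TGATGAAA on the gene's own strand and begins at position -23. The windows shown are those of Asns, the gene with the match (chr6:7693160-7693459, minus strand), of Psat1, the gene with the highest ratio between microglia of the libraries (chr19:15925010-15925309, minus strand), and of Ddit3, the factor that differed most between LD other macrophages and LD microglia (chr10:127290543-127290842, plus strand), with the match in capitals.
Asns: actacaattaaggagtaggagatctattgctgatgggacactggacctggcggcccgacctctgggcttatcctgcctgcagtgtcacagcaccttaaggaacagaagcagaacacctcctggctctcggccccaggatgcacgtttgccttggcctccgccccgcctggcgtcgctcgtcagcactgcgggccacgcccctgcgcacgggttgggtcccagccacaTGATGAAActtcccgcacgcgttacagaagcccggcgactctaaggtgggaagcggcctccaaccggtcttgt
Psat1: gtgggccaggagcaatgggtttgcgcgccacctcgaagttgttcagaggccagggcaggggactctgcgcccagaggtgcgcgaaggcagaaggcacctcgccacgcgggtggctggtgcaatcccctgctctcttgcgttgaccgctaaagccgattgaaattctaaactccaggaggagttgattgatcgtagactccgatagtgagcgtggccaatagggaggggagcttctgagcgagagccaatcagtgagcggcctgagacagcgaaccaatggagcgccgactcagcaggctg
Ddit3: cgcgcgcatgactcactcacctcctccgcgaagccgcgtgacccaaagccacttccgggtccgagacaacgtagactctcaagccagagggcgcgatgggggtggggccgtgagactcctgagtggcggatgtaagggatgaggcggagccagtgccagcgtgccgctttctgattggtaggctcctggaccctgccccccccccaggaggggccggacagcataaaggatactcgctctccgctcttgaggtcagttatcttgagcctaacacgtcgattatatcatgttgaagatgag
A match is a description of letters, and its absence from these windows says nothing of binding elsewhere.

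**Figure D1:**
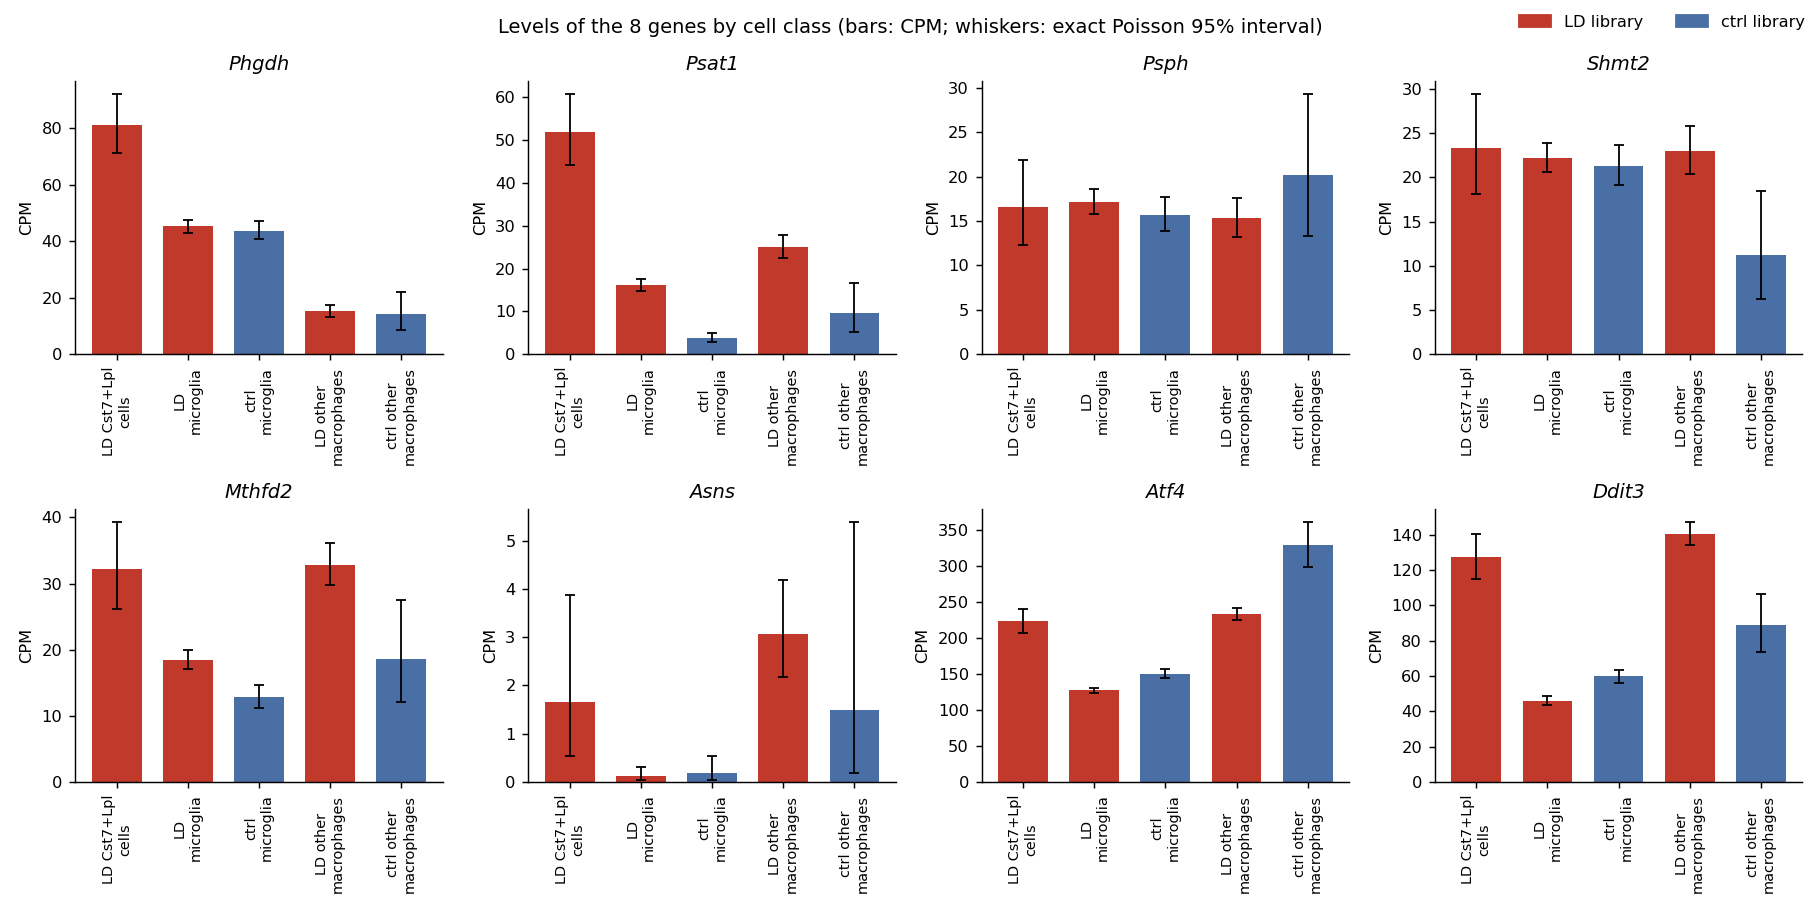
Level of each gene (CPM, 1 axis per gene) in 5 cell classes, with red bars for the LD library, blue bars for the ctrl library and whiskers for exact Poisson 95% intervals. Psat1 is at 51.9 CPM in LD Cst7+Lpl cells and 3.87 CPM in ctrl microglia, while Psph stays between 15.3 and 20.1 CPM in all 5.

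Microglia of the LD library had more Psat1 than microglia of the ctrl library, while the other serine enzymes were at close levels. Psat1, the aminotransferase, was at 16.1 CPM in LD microglia (524 UMIs) and 3.87 CPM in ctrl microglia (64 UMIs), a ratio of 4.16 (3.21 to 5.48). Phgdh, the enzyme before it, was at 45.2 CPM in LD microglia and 43.7 CPM in ctrl microglia, a ratio of 1.03 (0.945 to 1.13). Psph, the enzyme after it, was at 17.2 CPM in LD microglia and 15.7 CPM in ctrl microglia, a ratio of 1.09 (0.942 to 1.27). The middle step thus differed alone among the 3 enzymes of the chain, and its level lay under the minimum of 20 CPM in both libraries.

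Shares of cells were compared at equal depth. At 3000 UMIs per cell, 3.35% of 4387 LD microglia had a Psat1 UMI (2.84% to 3.93%), against 0.937% of 2774 ctrl microglia (0.613% to 1.37%), and 605 shallower ctrl microglia were left out. Without thinning the shares were 8.48% in LD microglia and 1.81% in ctrl microglia, and the median depth was 6775 UMIs in LD microglia and 4781 UMIs in ctrl microglia. Perivascular-marker cells had at least 10 of the perivascular sum. In the LD library 0 of 75 thinned ones had a Psat1 UMI (upper bound 4.80%, median depth 9534 UMIs). In the ctrl library it was 0 of 33 (upper bound 10.6%). Both bounds lie above the shares of LD and of ctrl microglia, so they do not separate either class from background. The log2 ratio of Psat1 was 2.06, and it was 2.14 with ctrl cells of at least the lowest LD depth, 1.84 without dividing cells and 0.91 with 10 CPM added to both levels. Only 91 LD microglia and 3 ctrl microglia had 2 or more Psat1 UMIs, and the highest count in a cell was 9 in LD microglia and 2 in ctrl microglia.

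Of the mitochondrial one-carbon enzymes, Shmt2 was at 22.2 CPM in LD microglia and 21.3 CPM in ctrl microglia, a ratio of 1.04 (0.914 to 1.18). Mthfd2 was at 18.5 CPM in LD microglia and 12.9 CPM in ctrl microglia, a ratio of 1.44 (1.23 to 1.69). Asns, whose promoter window holds the match, was barely detected, with 4 UMIs in LD microglia and 3 in ctrl microglia. Both transcription factors were lower in LD microglia. Atf4 was at 127 CPM in LD microglia and 150 CPM in ctrl microglia, a ratio of 0.847 (0.806 to 0.891). Ddit3 was at 46.2 CPM in LD microglia and 59.8 CPM in ctrl microglia, a ratio of 0.772 (0.712 to 0.837).

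In all, 4 of the 8 genes reached 20 CPM in LD or ctrl microglia, and 0 of the 4 were over 1.5-fold higher or lower. With no minimum, Psat1 was the 1 gene over that fold. Of 5222 genes with that level, 5.38% were over 1.5-fold higher in LD microglia and 6.66% were lower. The median log2 ratio was -0.10 over the 4 genes and -0.02 over the 5222. Immediate-early genes, which dissociation of tissue can induce, moved with this contrast: 5 of them summed to 5430 CPM in LD microglia and 9187 CPM in ctrl microglia. Their part in the lower Atf4 and Ddit3 was not tested. Müller glia make serine for the retina. Of 8 listed Müller genes, Rlbp1, Aqp4, Dkk3, Car14 and Sox9 were at or below 1.57 CPM in LD microglia and 3.56 CPM in ctrl microglia. Kcnj10 was at 3.87 CPM in LD microglia and 3.02 CPM in ctrl microglia. Slc1a3 was at 38.0 CPM in LD microglia and 47.4 CPM in ctrl microglia. Of the 8-gene Müller list, Glul made up most of the sum, with 615 of 659 CPM in LD microglia and 804 of 860 CPM in ctrl microglia.

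**Figure D2:**
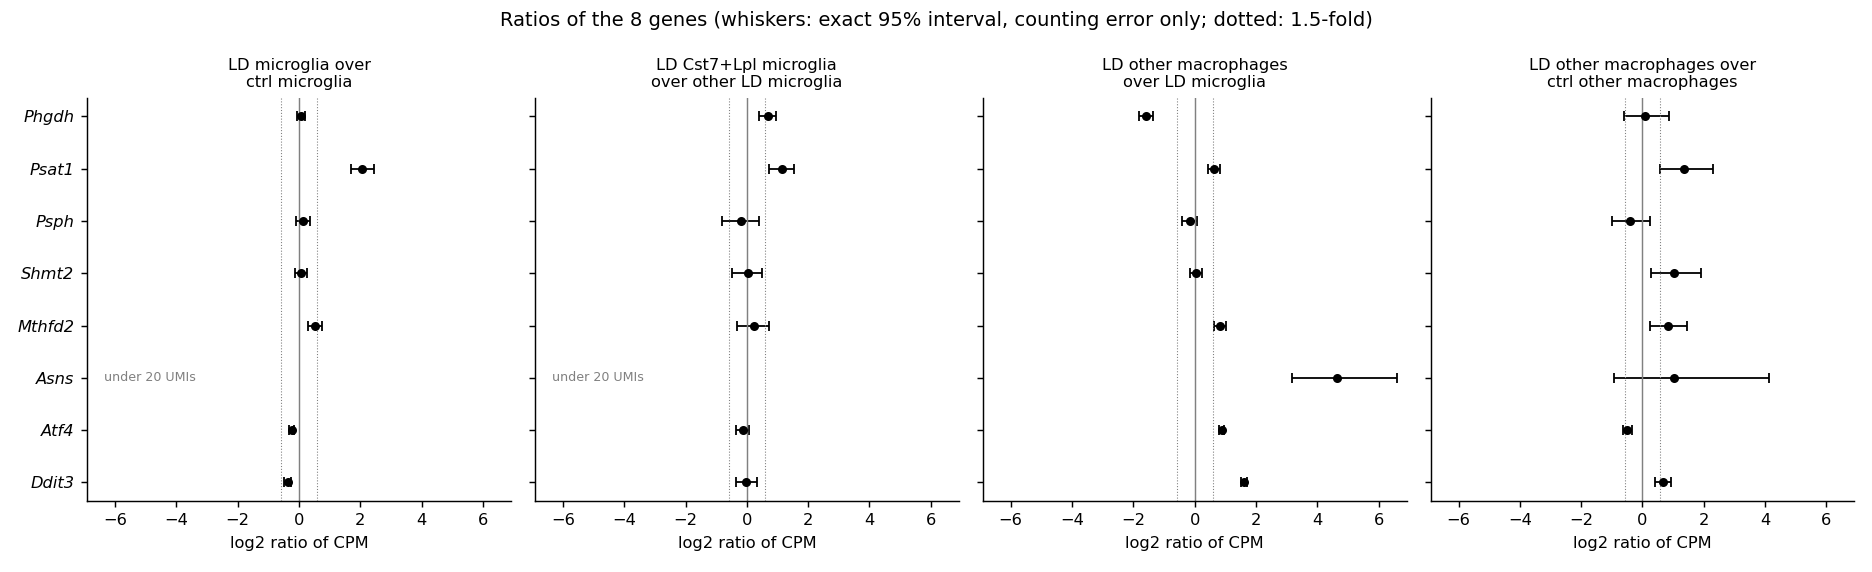
Log2 ratio of CPM (x axis) for each gene (rows) in 4 comparisons, with exact 95% intervals and dotted lines at 1.5-fold. Psat1 lies right of 0 in all 4 panels, while Phgdh lies left of 0 between LD other macrophages and LD microglia (ratio 0.335), and ratios resting on under 20 UMIs in total are not drawn.

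The pathway was also read in 7 gene lists, counted by the same rule. The lists hold the 8 genes too: 3 in serine and glycine supply, 2 in folate, 1 in ATF4 targets of amino acid supply and 2 in stress factors and feedback. Counts of those lists therefore include genes already described. In LD microglia over ctrl microglia, 0 of 3 measured genes of serine and glycine supply and 0 of 11 aminoacyl-tRNA synthetase genes, which load amino acids onto tRNA, were past 1.5-fold. Of 7 measured folate genes 1 was lower, Atic of purine synthesis, at 43.0 CPM in LD microglia and 65.4 CPM in ctrl microglia. Of 4 measured ATF4 targets of amino acid supply 1 was lower, the transporter gene Slc7a5, at 16.4 CPM in LD microglia and 26.3 CPM in ctrl microglia. Of 8 measured stress transcription factors and feedback genes 1 was lower, Atf3, at 384 CPM in LD microglia and 612 CPM in ctrl microglia. Of 8 measured genes of eIF2 and its kinases 1 was higher, Eif2ak2, which encodes the interferon-induced kinase PKR, at 48.5 CPM in LD microglia and 18.4 CPM in ctrl microglia, a ratio of 2.64 (2.34 to 2.998). Of 16 measured endoplasmic reticulum chaperone and unfolded protein genes 1 was higher, the lectin chaperone gene Calr, at 662 CPM in LD microglia and 390 CPM in ctrl microglia. List medians lay between -0.24 and 0.08 on the log2 scale.

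Within LD microglia, cells with Cst7 and Lpl had more of the first 2 serine enzymes. Psat1 was at 33.5 CPM in LD Cst7+Lpl microglia (55 UMIs in 197 cells) and 15.2 CPM in other LD microglia, a ratio of 2.21 (1.64 to 2.93). Phgdh was at 70.1 CPM in LD Cst7+Lpl microglia and 43.9 CPM in other LD microglia, a ratio of 1.60 (1.31 to 1.93). The remaining genes were at ratios from 0.883 (Psph) to 1.16 (Mthfd2), with Atf4 at 0.917 (0.789 to 1.06) and Ddit3 at 0.990 (0.774 to 1.25), and Asns had 0 UMIs in LD Cst7+Lpl microglia and 4 in other LD microglia. Of 6 genes with 20 CPM, 2 were over 1.5-fold higher and 0 lower, against 3.19% higher and 2.13% lower of 5209 genes. The median log2 ratio was 0.12 over the 6 genes and 0.0024 over the 5209. Among the lists, Psat1 and Phgdh were the 2 of 4 measured serine supply genes that were higher, and Tyms, which makes thymidylate for DNA, was the 1 of 9 folate genes, at 25.6 CPM in LD Cst7+Lpl microglia and 15.2 CPM in other LD microglia. The other 5 lists had 0 genes past the fold.

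The 2 classes also differed in dividing cells, of which there were 7 of 197 in LD Cst7+Lpl microglia and 53 of 4190 in other LD microglia. Without dividing cells the log2 ratio was 1.29 for Psat1 and 0.58 for Phgdh, against 1.14 and 0.68 with them, and Phgdh was then just under 1.5-fold. With at least 10 of Cst7 and Lpl per 10000 and the stricter microglia sum, the log2 ratio was 0.47 for Psat1 and 0.02 for Phgdh. That setting left 24 LD Cst7+Lpl microglia, and its other LD microglia took in cells with 5 to under 10 of Cst7 and Lpl. Other LD microglia over ctrl microglia with under 5 of Cst7 and Lpl still had a Psat1 ratio of 4.09 (3.12 to 5.43), at 15.2 CPM in LD and 3.71 CPM in ctrl. There 4 genes reached 20 CPM and 0 were past 1.5-fold, against 5.42% higher and 6.61% lower of 5221 genes.

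Levels were followed over ranges of Cst7 and Lpl per 10000. In LD microglia Psat1 was at 9.81 CPM with 0 of the 2 genes, 22.3 CPM above 0 and under 5, 37.0 CPM from 5 to under 10, and 18.2 CPM from 10 to under 20. Phgdh was at 33.4, 57.8, 74.8 and 65.5 CPM over the same ranges, which held 2678, 1512, 151 and 37 cells. Atf4 was at 140, 112, 103 and 127 CPM, and Ddit3 at 47.4, 44.6, 47.8 and 29.1 CPM. The 9 cells with 20 or more had 0 UMIs of Phgdh, 2 UMIs of Psat1 and 333 CPM of Atf4 (211 to 499 CPM). Psph was at 16.7, 18.1, 13.9 and 21.8 CPM over the first 4 ranges, with intervals that overlapped. Only 5 Psat1 UMIs lay behind the value from 10 to under 20 (interval 5.91 to 42.5 CPM). A cell with more UMIs is more likely to leave the 0 range, and the median depth was 6261 UMIs at 0 and 7866 UMIs in the next range.

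**Figure D3:**
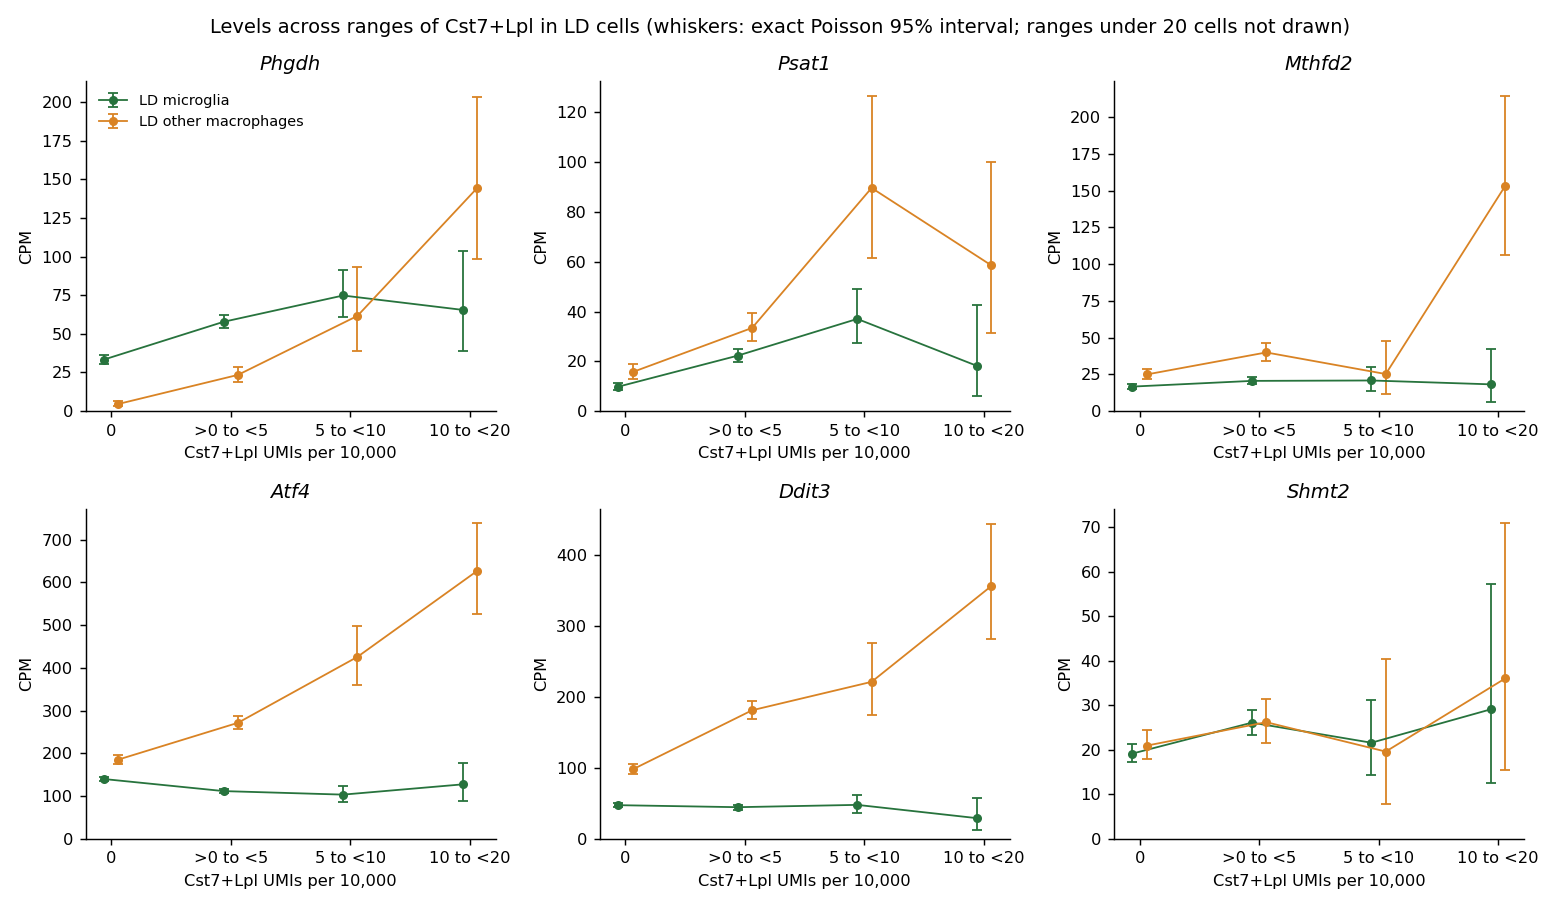
CPM of 6 genes (y axes) over ranges of Cst7 and Lpl UMIs per 10000 (x axis) in LD microglia (green) and LD other macrophages (orange), with exact Poisson 95% intervals and ranges under 20 cells left out. Atf4 and Ddit3 climb in other macrophages, with Ddit3 at 97.8 to 356 CPM, while Ddit3 in microglia lies between 29.1 and 47.8 CPM.

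As the rule words them, all 324 LD cells with Cst7 and Lpl had 51.9 CPM of Psat1, against 3.87 CPM in ctrl microglia, a ratio of 13.4 (9.97 to 18.2). Of 6 genes with 20 CPM, 4 were over 1.5-fold higher than in ctrl microglia and 0 lower, against 13.2% higher and 11.4% lower of 5435 genes. Against other LD microglia, 5 of 6 were higher and 0 lower, beside 8.14% higher and 4.02% lower of 5294 genes. The 63 of them in neither other class had 67.9 CPM (50.03 to 89.97). Phgdh was at 81.1 CPM in LD Cst7+Lpl cells, 43.9 CPM in other LD microglia and 43.7 CPM in ctrl microglia. Mthfd2 was at 32.3 CPM in LD Cst7+Lpl cells, 18.3 CPM in other LD microglia and 12.9 CPM in ctrl microglia. Psph, at 16.6 CPM, and Shmt2, at 23.3 CPM, were within 1.10-fold of both. Atf4 was at 223 CPM in LD Cst7+Lpl cells and 128 CPM in other LD microglia, and Ddit3 was at 127 CPM in LD Cst7+Lpl cells and 46.2 CPM in other LD microglia. Since neither factor was higher in the 197 of them that were microglia, this difference came with the 64 other macrophages, at 550 CPM of Atf4 and 383 CPM of Ddit3, and with the 63 cells in neither class, at 163 CPM of Atf4 and 77.8 CPM of Ddit3. The 27 ctrl cells with Cst7 and Lpl had 103 CPM of Phgdh (59.0 to 168 CPM, 16 UMIs) and 206 CPM of Atf4 (141 to 291 CPM, 32 UMIs), with intervals that include the LD levels. They had 3 UMIs of Psat1, at 19.3 CPM (3.99 to 56.5 CPM), an interval that also includes the LD level of 51.9 CPM. They had 9 UMIs of Ddit3, at 58.0 CPM (26.5 to 110 CPM), an interval below the LD level of 127 CPM. The 2 sets differed in make-up, with 23 of the 27 ctrl cells and 197 of the 324 LD cells being microglia. In these microglia alone Ddit3 was at 39.6 CPM in ctrl (12.9 to 92.5 CPM, 5 UMIs) and 45.7 CPM in LD (36.0 to 57.3 CPM).

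LD other macrophages differed from LD microglia in both directions. Phgdh was at 15.1 CPM in LD other macrophages and 45.2 CPM in LD microglia, a ratio of 0.335 (0.287 to 0.389). Psat1 was at 25.02 CPM in LD other macrophages and 16.1 CPM in LD microglia, a ratio of 1.55 (1.35 to 1.79). The first 2 enzymes of the chain thus differed in opposite directions between the 2 kinds of cells. Psph, at a ratio of 0.891 (0.753 to 1.051), and Shmt2, at 1.04 (0.902 to 1.19), were close to equal. Mthfd2 was at 32.9 CPM in LD other macrophages and 18.5 CPM in LD microglia, a ratio of 1.78 (1.57 to 2.02). Atf4 was at 233 CPM in LD other macrophages and 127 CPM in LD microglia, a ratio of 1.84 (1.75 to 1.92). Ddit3 was at 141 CPM in LD other macrophages and 46.2 CPM in LD microglia, a ratio of 3.05 (2.85 to 3.27).

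Asns, the asparagine synthetase gene, had 39 UMIs in 1171 LD other macrophages and 4 UMIs in 4387 LD microglia, a ratio of 24.9 (8.98 to 95.9). It stayed under 20 CPM in both and was not counted. Of 6 genes that were, 4 were over 1.5-fold higher and 1 lower, against 13.6% higher and 17.7% lower of 5355 genes. The median log2 ratio was 0.73 over the 6 genes and -0.07 over the 5355. Among the lists, 3 of 4 ATF4 targets of amino acid supply were higher, with the cystine transporter gene Slc7a11 at 38.8 CPM in LD other macrophages and 7.83 CPM in LD microglia. Of 10 stress factor and feedback genes 4 were higher and 0 lower, Atf4 and Ddit3 among the 4. The stress cytokine gene Gdf15 was at 71.7 CPM in LD other macrophages and 17.1 CPM in LD microglia. Of 10 aminoacyl-tRNA synthetase genes 0 were higher and 1 lower, Aars, at 39.3 CPM in LD other macrophages and 60.9 CPM in LD microglia. The folate list had 3 of 9 genes higher, among them Mthfd2, and Gcsh of glycine cleavage at a ratio of 1.70. The endoplasmic reticulum list had 2 of 16 higher and 1 lower.

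Much of the Atf4 and Ddit3 RNA of LD other macrophages lay in few cells. A single cell held 78 UMIs of Ddit3, and 38 cells with at least 10 held 49.5% of the 1795 Ddit3 UMIs of the class. Of these 38 cells, 29 had at least 20 per 10000 of the sum of Lgals3, which encodes galectin-3, and Mmp12, the macrophage elastase gene. Either gene alone can reach this sum, which 164 of the 1171 cells did. Cells with Lgals3 and Mmp12 are, throughout, those that reached the sum. For Atf4, 55 cells with at least 10 UMIs held 38.5% of 2976 UMIs. In LD microglia only 3 of 4387 cells had 10 or more Ddit3 UMIs, with 2.46% of the total.

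Cst7 and Lpl also marked cells with high levels among LD other macrophages, where 23 of the 64 cells with at least 5 per 10000 were among those with Lgals3 and Mmp12. Phgdh was at 84.8 CPM in LD Cst7+Lpl other macrophages and 11.3 CPM in the 1107 with less, a ratio of 7.49 (5.39 to 10.3). Psat1 was at 80.3 CPM in LD Cst7+Lpl other macrophages and 22.0 CPM in those with less, a ratio of 3.65 (2.66 to 4.92). Mthfd2 was at a ratio of 2.65 (1.95 to 3.55), Atf4 at 2.54 (2.27 to 2.84) and Ddit3 at 3.01 (2.62 to 3.43). Of 6 genes with 20 CPM, 5 were over 1.5-fold higher and 0 lower, against 33.1% higher and 8.56% lower of 5653 genes.

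The LD class was also split by the sum of Lgals3 and Mmp12, a split added after these values were seen. Ddit3 was at 426 CPM in the 164 LD other macrophages with Lgals3 and Mmp12 and 79.4 CPM in the 1007 under the cutoff, a ratio of 5.37 (4.89 to 5.90). Atf4 was at 551 CPM in those with Lgals3 and Mmp12 and 165 CPM in those under the cutoff, a ratio of 3.33 (3.10 to 3.59). Phgdh was at 44.3 CPM in those with Lgals3 and Mmp12 and 8.86 CPM in those under the cutoff, a ratio of 5.00 (3.73 to 6.70). Mthfd2 was at a ratio of 2.43 (1.98 to 2.99), Psat1 at 1.86 (1.44 to 2.38), Psph at 1.65 (1.17 to 2.28), Asns at 3.59 (1.79 to 7.08) and Shmt2 at 1.10 (0.806 to 1.48). Of 7 genes with 20 CPM, 6 were over 1.5-fold higher and 0 lower, against 32.8% higher and 7.88% lower of 5482 genes, whose median log2 ratio was 0.37.

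The lists are read against the 32.8% of all genes that were higher in these cells. All 12 measured genes of the aminoacyl-tRNA synthetase list were over 1.5-fold higher, with a median log2 ratio of 1.00. One of the 12 is Xpot, which encodes a tRNA export factor and not a synthetase. Cars, the cysteine enzyme, was at 52.3 CPM with Lgals3 and Mmp12 and 19.2 CPM under the cutoff. Trib3, a feedback inhibitor in the ATF4 response, was at 86.0 CPM with Lgals3 and Mmp12 and 3.15 CPM under the cutoff, a ratio of 27.3 (18.8 to 40.8). Of 13 stress factor and feedback genes 8 were higher and 0 lower, Atf4 and Ddit3 among the 8. Of 4 ATF4 targets of amino acid supply 3 were higher. Among them Slc3a2, the shared chain of amino acid transporters, was at 833 CPM with Lgals3 and Mmp12 and 311 CPM under the cutoff. The endoplasmic reticulum list had 10 of 16 genes higher, among them Creld2 at a ratio of 1.85, and eIF2 and its kinases had 4 of 10 higher, among them Eif2b3 at 2.28. The folate list had 4 of 9 higher and 1 lower, Tyms, at 16.8 CPM with Lgals3 and Mmp12 and 33.2 CPM under the cutoff. The cells with Lgals3 and Mmp12 also had 15427 CPM of the 8 macrophage markers, against 21905 CPM under the cutoff, and a median of 11852.5 UMIs, against 9371 UMIs under the cutoff. The part of these in the ratios was not tested. Dividing cells were 7 of the 164 cells with Lgals3 and Mmp12 and 68 of the 1007 under the cutoff.

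Without the cells with Lgals3 and Mmp12, the log2 ratio between LD other macrophages and LD microglia was 0.78 for Ddit3, against 1.61 with them, and 0.38 for Atf4, against 0.88 with them. That of Phgdh was -2.35, against -1.58 with them. In that setting 1 of 6 genes with 20 CPM, Ddit3, was over 1.5-fold higher and 1, Phgdh, lower, against 11.1% higher and 20.5% lower of 5265 genes.

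**Figure D4:**
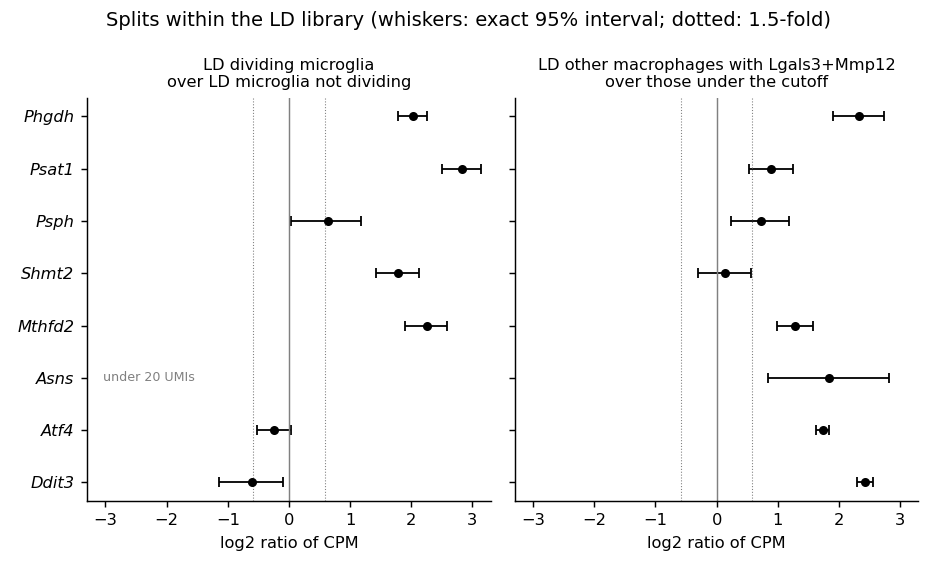
Log2 ratio of CPM (x axis) for each gene (rows) between dividing LD microglia and LD microglia not dividing (left) and between LD other macrophages with and under the cutoff of Lgals3 and Mmp12 (right), with exact 95% intervals and dotted lines at 1.5-fold. Ddit3 lies on opposite sides of 0, at ratios of 0.660 and 5.37, while Phgdh, Psat1 and Mthfd2 lie right of 0 in both panels.

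Dividing LD microglia were those with at least 5 per 10000 of marker genes of dividing cells. They had more of the serine and one-carbon enzymes and, by CPM, less Ddit3. Psat1 was at 95.2 CPM in 60 dividing LD microglia and 13.4 CPM in 4327 LD microglia not dividing, a ratio of 7.11 (5.67 to 8.84). Phgdh was at 167 CPM in dividing LD microglia and 41.1 CPM in those not dividing, a ratio of 4.07 (3.46 to 4.76). Mthfd2 was at a ratio of 4.77 (3.74 to 6.01), Shmt2 at 3.46 (2.69 to 4.39) and Psph at 1.55 (1.02 to 2.27). Atf4 was at 108 CPM in dividing LD microglia and 128 CPM in those not dividing, a ratio of 0.847 (0.698 to 1.02). Ddit3 was at 30.8 CPM in dividing LD microglia and 46.7 CPM in those not dividing, a ratio of 0.660 (0.453 to 0.931), and Asns had 0 UMIs in dividing LD microglia and 4 in those not dividing. This split was added after the levels were seen.

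Of 7 genes with 20 CPM, 5 were over 1.5-fold higher and 1 lower, against 28% higher and 11.8% lower of 5741 genes. Folate genes were the list with the highest share, at 8 of 11 higher and 0 lower, among them Tyms, at 203 CPM in dividing LD microglia and 9.34 CPM in those not dividing. Stress factors and feedback genes had 0 of 8 higher and 3 lower, with Atf3 at 126 CPM in dividing LD microglia and 393 CPM in those not dividing. The median depth was 17580 UMIs in dividing LD microglia and 6740 UMIs in those not dividing, and the median doublet score was 0.0548 in dividing LD microglia and 0.0710 in those not dividing. The 5 immediate-early genes summed to 2129 CPM in dividing LD microglia and 5542 CPM in those not dividing. Their part, and that of depth, in these ratios was not tested.

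LD and ctrl other macrophages were compared last, since the ctrl class was mixed. Psat1 was at 25.02 CPM in LD other macrophages and 9.70 CPM in ctrl other macrophages, a ratio of 2.58 (1.49 to 4.90). Over the alternative settings its log2 ratio lay between 0.31, which is under 1.5-fold, and 3.66. Of the 13 ctrl UMIs, 11 lay in the 74 cells with rod or Müller glia transcripts, and without such cells the log2 ratio was 3.66, against 1.37 with them, on 2 ctrl UMIs. Shmt2 was at 23.0 CPM in LD other macrophages and 11.2 CPM in ctrl other macrophages, a ratio of 2.05 (1.22 to 3.72), and its log2 ratio was 1.26 without such cells, against 1.04. Mthfd2 was at 32.9 CPM in LD other macrophages and 18.7 CPM in ctrl other macrophages, a ratio of 1.76 (1.18 to 2.75), with log2 ratios of 0.64 without such cells and 0.82 with them. Psph was at 15.3 CPM in LD other macrophages and 20.1 CPM in ctrl other macrophages, a ratio of 0.759 (0.506 to 1.18), and its log2 ratio turned to 0.80 without such cells, which held 18 of its 27 ctrl UMIs. Phgdh was at a ratio of 1.07 (0.666 to 1.81), with log2 ratios of 0.07 without such cells and 0.09 with them. Asns had 39 UMIs in LD other macrophages and 2 in ctrl other macrophages, 1 of them in such cells.

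Atf4 was lower in LD other macrophages, at 233 CPM against 329 CPM in ctrl other macrophages, a ratio of 0.709 (0.642 to 0.786), with log2 ratios of -0.51 without cells with rod or Müller glia transcripts and -0.50 with them. Ddit3 was higher, at 141 CPM in LD other macrophages and 88.8 CPM in ctrl other macrophages, a ratio of 1.59 (1.32 to 1.93). The log2 ratio of Ddit3 was 0.67, and it was 0.61 without cells with rod or Müller glia transcripts, -0.11 without the cells with Lgals3 and Mmp12, which numbered 164 in LD and 8 in ctrl, and 0.08 with only cells rich in macrophage markers, of which there were 1115 in LD and 157 in ctrl. Of 6 genes with 20 CPM, 4 were over 1.5-fold higher and 0 lower, against 22.9% higher and 28.4% lower of 5861 genes. Without cells with rod or Müller glia transcripts, 4 of 5 were higher and 0 lower, against 29.2% higher and 20.2% lower of 5314 genes. With only cells rich in macrophage markers, 2 of 5 were higher and 1 lower, against 33% higher and 19% lower of 5051 genes. Among the lists, the endoplasmic reticulum list had 9 of 16 higher and 2 lower, the folate list 4 of 9 higher, the aminoacyl-tRNA synthetases 4 of 10 higher, and the ATF4 targets of amino acid supply 1 of 7 higher and 4 lower. Serine and glycine supply had 1 of 4 higher and 1 lower, eIF2 and its kinases 2 of 5 higher, and stress factors and feedback 3 of 12 higher and 4 lower. Without cells with rod or Müller glia transcripts, the endoplasmic reticulum list had 6 of 16 higher and 3 lower, the folate list 6 of 9 higher, the aminoacyl-tRNA synthetases 6 of 10 higher, and the ATF4 targets 1 of 5 higher and 2 lower. Serine and glycine supply then had 1 of 3 higher and 1 lower, eIF2 and its kinases 3 of 5 higher, and stress factors and feedback 2 of 11 higher and 5 lower.

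Within ctrl, other macrophages also had less Phgdh than microglia, at 14.2 CPM in ctrl other macrophages and 43.7 CPM in ctrl microglia, a ratio of 0.324 (0.194 to 0.510). Atf4 was at 329 CPM in ctrl other macrophages and 150 CPM in ctrl microglia, a ratio of 2.19 (1.98 to 2.43), and Ddit3 at a ratio of 1.48 (1.22 to 1.80). Without the 74 cells with rod or Müller glia transcripts, ctrl other macrophages had 14.5 CPM of Phgdh, 333 CPM of Atf4 and 92.6 CPM of Ddit3. Of 5 genes with 20 CPM, 1 was over 1.5-fold higher and 2 lower, against 25% higher and 25.9% lower of 6021 genes.

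Across 7 classes that share no cell, the order of levels differed from gene to gene. Psat1 was highest in LD Cst7+Lpl microglia, at 33.5 CPM, and LD other macrophages, at 25.02 CPM, whose intervals overlapped. Other LD microglia were at 15.2 CPM, with an interval that overlapped that of ctrl other macrophages, and ctrl microglia and both perivascular-marker classes were at 3.87 CPM or less. Phgdh was highest in LD Cst7+Lpl microglia and equal within error in other LD and ctrl microglia. It was at 15.1 CPM in LD and 14.2 CPM in ctrl other macrophages, and at 0 UMIs in perivascular-marker cells, with an upper bound of 5.08 CPM in the 75 LD cells and 14.1 CPM in the 36 ctrl cells. Of 2 genes with 20 CPM in perivascular-marker cells, 0 were over 1.5-fold higher in LD and 1, Atf4, was lower, against 23.3% higher and 18.6% lower of 4917 genes. Atf4 ran the other way, at 424 CPM in ctrl perivascular-marker cells, 329 CPM in ctrl other macrophages, 267 CPM in LD perivascular-marker cells and 117 CPM in LD Cst7+Lpl microglia. Ddit3 was highest in LD other macrophages, at 141 CPM, and its 4 classes outside microglia overlapped one with the next. Psph, Shmt2 and Mthfd2 had neighbours in the order whose intervals overlapped in all but 3 steps.

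By Pearson correlation of log2(CPM + 1) over these 7 classes of 2 libraries, the genes most like Psat1 among 6688 were Nucks1 (r = 0.989), Ube2c (0.987), 2700094K13Rik (0.971), Ccl5 (0.967) and Racgap1 (0.963). Ube2c and Racgap1 act in cell division, and Ccl5 encodes a chemokine. The correlation ignores the size of the differences. Nucks1 ranged only from 44.1 to 60.4 CPM over the 7 classes, while Psat1 ranged from 2.76 to 33.5 CPM. Mthfd2 ranked 454th at 0.724, with Phgdh at 0.680, Shmt2 at 0.671, Psph at 0.462, Ddit3 at -0.296 and Atf4 at -0.513. Cells of 1 library share depth and free RNA, so these values describe 7 points only.

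Between single cells thinned to 3000 UMIs, weak correlations were seen in LD microglia and higher ones in LD other macrophages. In 4387 LD microglia Atf4 and Ddit3 had r = 0.205, and the other 27 pairs lay between -0.038 and 0.051, the highest being Phgdh with Psat1. In 1171 LD other macrophages Atf4 and Ddit3 had r = 0.401, Mthfd2 and Ddit3 0.246, Phgdh and Mthfd2 0.222 and Phgdh and Asns 0.208. All 10 pairs among Phgdh, Mthfd2, Asns, Atf4 and Ddit3 lay between 0.111 and 0.401 there, and the 18 pairs with Psat1, Psph or Shmt2 lay between -0.038 and 0.074. Most cells had 0 UMIs of each enzyme gene, so weak values carry little.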

How the data were processed

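Retinal Cx3cr1-YFP cells of 2 groups, LD and ctrl, were measured as 1 library each. The authors deposited, per library, a matrix of UMI counts by gene and cell barcode, which held whole numbers and was not normalized. Cell Ranger, version 2.0.0, and the mm10 build are named, per the submitters' processing notes, with no further steps. Such counts leave out reads outside annotated genes and cannot tell near-identical copies apart.

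Filters asked for 300 detected genes and a mitochondrial share of no more than 10%, which 6799 barcodes met in LD and 3948 in ctrl. Scrublet (scanpy 1.11.5) marked 3 LD and 1 ctrl barcodes at its automatic threshold, under the minimum of 0.5%, so the highest scores were removed, up to 0.8% per 1000 barcodes, 372 in LD and 128 in ctrl. UMIs were summed per class and expressed as CPM. Ratios of 2 Poisson counts and Clopper-Pearson shares have exact 95% intervals (scipy 1.17.1). Python 3.11.15, numpy 2.4.6, pandas 2.3.3 and matplotlib 3.10.9 were also used. For shares and correlations cells were thinned to 3000 UMIs, which left out 703 of 3820 ctrl cells. Where a symbol had several identifiers (56 symbols), the one with most UMIs was used. Positions came from GENCODE M21.

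The genes, classes and lists were chosen with earlier results of these data known. Genes named besides the 8 are, from each list, the 3 farthest past 1.5-fold in LD microglia over ctrl microglia and in LD Cst7+Lpl microglia over other LD microglia, and the 5 most like Psat1. Genes named in the other comparisons, the immediate-early genes and the splits by division and by Lgals3 and Mmp12 were added after values were seen.

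Alternatives were no doublet removal, a minimum depth, a lower mitochondrial maximum, means per cell, median-ratio scaling, a pseudocount, no minimum level, stricter cutoffs, a fold of 2 and leaving out dividing, Lgals3 and Mmp12, or rod and Müller cells.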

Additional observations from a re-analysis of the deposited data

Results flagged for a closer look

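The LD and ctrl cells between the cutoffs of the classes, 794 in LD and 161 in ctrl, enter no comparison between the libraries above, except those with Cst7 and Lpl. In them Phgdh was at 53.7 CPM in LD and 24.2 CPM in ctrl, a ratio of 2.22 (1.46 to 3.54). Psat1 was at 33.8 CPM in LD and 3.15 CPM in ctrl, a ratio of 10.7 (3.63 to 52.3) that rests on 3 ctrl UMIs. Shmt2 was at 29.4 CPM in LD and 13.7 CPM in ctrl, a ratio of 2.15 (1.23 to 4.10). Each was higher in LD beyond counting error, in cells that mostly lie outside the classes compared. The LD and ctrl cells differed in make-up: dividing cells were 66 of 794 in LD and 3 of 161 in ctrl, rod genes summed to 97.1 CPM in LD and 1087 CPM in ctrl, and perivascular genes to 44.2 CPM in LD and 356 CPM in ctrl. Their part in the ratios was not tested. In the same cells Atf4 was at a ratio of 0.536 (0.476 to 0.606) and Ddit3 at 0.429 (0.366 to 0.505). Of 6 genes with 20 CPM, 3 were over 1.5-fold higher and 2 lower, against 27% higher and 16% lower of 5324 genes.

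Ddit3 had ratios of LD over ctrl on opposite sides of 1, at 0.772 (0.712 to 0.837) in microglia and 1.59 (1.32 to 1.93) in other macrophages. In other macrophages the log2 ratio was -0.11 without the cells with Lgals3 and Mmp12 and 0.08 with only cells rich in macrophage markers. With 1 library per group the difference between these ratios was not tested.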

How the results depend on the processing

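Of 100 counts of genes over all alternatives 82 stayed within 1.5 times and 18 moved. Of 326 log2 ratios 282 stayed within their counting interval, 43 moved and 1 past 1.5-fold changed sign: Ddit3, LD over ctrl other macrophages, at -0.11 without cells with Lgals3 and Mmp12. For LD over ctrl other macrophages (4 higher, 0 lower), the higher count was 1 when CPM was averaged over cells. It was 2 with stricter cutoffs, a fold of 2 or macrophage-marker cells only. Of all genes 22.9% were higher in the main setting, and 18.8%, 21.1%, 9.33% and 33% in these, in order. The lower count was 1 with the mean per cell, median-ratio scaling, stricter cutoffs or macrophage-marker cells only, and 2 without Lgals3 and Mmp12 cells. Of all genes 28.4% were lower in the main setting, and 34%, 31.9%, 38.7%, 19% and 31.8% in these, in order. For LD Cst7+Lpl microglia over other LD microglia (2 higher, 0 lower), the higher count was 1 with a pseudocount of 10 CPM. It was also 1 without dividing cells or at a fold of 2, and 0 with stricter cutoffs. Of all genes 3.19% were higher in the main setting, and 1.57%, 2.92%, 0.864% and 15.9% in these, in order. Its lower count was 1 with no minimum level, which was Asns on 4 UMIs, beside 18.3% of all genes lower, against 2.13% in the main setting. For LD microglia over ctrl microglia (0 higher), the count was 1 with no minimum, beside 10.5% of all genes higher, against 5.38% in the main setting. For LD other macrophages over LD microglia (4 higher), the higher count was 1 without Lgals3 and Mmp12 cells or at a fold of 2. It was 2 with macrophage-marker cells only. Of all genes 13.6% were higher in the main setting, and 11.1%, 7.08% and 12% in these, in order. The macrophage-marker setting was chosen after seeing the data. The cause of these moves was not tested beyond the cells each setting leaves out. Psat1 in LD microglia over ctrl microglia kept its direction, with log2 ratios between 0.91 and 2.14. Without thinning, 29 of 32 shares moved past their interval.

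Each group was 1 library, so leaving out a replicate was not an option. No paired analysis was possible because each group has a single pool. Depth limits Asns in microglia and Psat1 in ctrl other macrophages, where few UMIs lie behind a ratio. CPM is a share of the RNA of a class.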

Other observations

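Perivascular-marker cells, with under 10 of the microglia sum and at least 10 of the perivascular sum, numbered 75 in LD and 36 in ctrl. Atf4 was at 267 CPM in the LD cells and 424 CPM in the ctrl cells, a ratio of 0.630 (0.496 to 0.803). Ddit3 was at 112 CPM in the LD cells and 103 CPM in the ctrl cells, a ratio of 1.08 (0.692 to 1.74). Psph had 7 UMIs in the LD cells and 0 in the ctrl cells, and Psat1 had 2 UMIs in the LD cells and 1 in the ctrl cells. Asns had 2 UMIs in the LD cells and 4 UMIs in the ctrl cells, where all 4 lay in 1 cell.

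The 9 ctrl cells with a sum of at least 20 of Lgals3 and Mmp12 per 10000 had 581 CPM of Atf4 (36 UMIs). They had 161 CPM of Ddit3 (10 UMIs) and 96.8 CPM of Phgdh (6 UMIs). The 175 such LD cells had 555 CPM of Atf4, 436 CPM of Ddit3 and 45.1 CPM of Phgdh. Intervals of the ctrl values were wide, at 77.4 to 297 CPM for Ddit3.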
